A study of Homo sapiens with 18 samples.

Results

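The SP and KLF genes described here are the 10 family members SP1, SP2, SP3, SP4, KLF4, KLF5, KLF6, KLF9, KLF10 and KLF13. They were chosen by name, and each was found through its RefSeq identifiers as exactly 1 of the 23500 rows of the FPKM table (a level scaled for transcript length and library size). ZR751 is an established ER+ luminal breast cancer cell line. ZR751shMLL3 cells stably carry a lentiviral short hairpin RNA against MLL3 (KMT2C), a methyltransferase that places H3K4me1 at enhancers, and ZR751shLucif cells, the controls, carry a luciferase hairpin. Both lines were sorted for GFP and used at early passages, and a single MLL3 hairpin was used, so that effects of this hairpin on other transcripts and of the loss of MLL3 cannot be told apart. RNA-seq and ChIP-seq for SP1, ERα and H3K4me1 were done with 2 biological replicates per cell line and assay. The tests ask whether these genes, and SP1 binding at their promoters, differed between the cell lines.

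SP and KLF proteins share a C-terminal array of zinc fingers that reads GC boxes and CACCC boxes in promoters and enhancers. SP1 is a ubiquitous activator of housekeeping promoters, and in breast cancer cells ERα can act on genes without contacting DNA itself by binding SP1 at GC-rich sites. SP3 competes with SP1 for the same sites, while the KLF branch holds regulators of epithelial identity, proliferation and hormone response.

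The deposited FPKM give no read counts, so the depth behind each gene is unknown. ZR751shLucif replicate 1 stood apart, with correlations of 0.900 to 0.907 to the other libraries, which correlated with each other at 0.947 to 0.969. The fold change was higher for transcripts of higher GC content (Spearman correlation across genes 0.536, where genes are not independent replicates), and the median log2 fold change of the 11134 rows tested was -0.10. MLL3 itself had 2.34 and 6.77 FPKM in the controls, against 1.07 and 2.69 in ZR751shMLL3 (log2 fold change -1.02, SE 0.544, limma adjusted p = 0.629), so the cell lines overlapped. All 8 luminal markers were expressed, with summed levels of 9029 and 4860 FPKM in the controls, against 8718 and 7664 in ZR751shMLL3. Of the 4 basal, 4 fibroblast, 3 immune and 2 endothelial markers in the table, 3, 3, 2 and 2 stayed below 1 FPKM in every library, among them KRT5, DCN, PTPRC and CDH5. Their summed levels were 1.77 to 3.90, 13.1 to 18.3, 7.68 to 13.9 and 0 to 0.0469 FPKM, carried by ACTA2, COL1A1 and CD68.

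KLF5 and KLF13 had the largest fold changes among the 10 members, in opposite directions. KLF5 had less RNA in ZR751shMLL3 and KLF13 had more, and in both genes the replicates of a cell line lay close together. KLF6, KLF4 and SP3 were also lower in both ZR751shMLL3 libraries than in both ZR751shLucif libraries, by smaller amounts. SP1, SP2, SP4, KLF9 and KLF10 overlapped between the cell lines. No member passed the adjusted p of 0.05 in limma, where 0% of all rows were called higher and 0.00898% lower. At an unadjusted limma p of 0.05, KLF13 was higher and KLF5 lower, against 3.67% of all rows higher and 4.31% lower. Both knockdown libraries lay above both controls for 1 member and below them for 4, against 17.6% and 25.3% of all rows. The members' counts were not tested against these shares. With each library left out in turn, 7 or 8 members did not overlap, and the shares of all rows were 24.5 to 41.3% higher and 32.7 to 54.7% lower. In bulk RNA, fewer cells with a transcript and less of it per cell cannot be told apart.

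**Figure D1:**
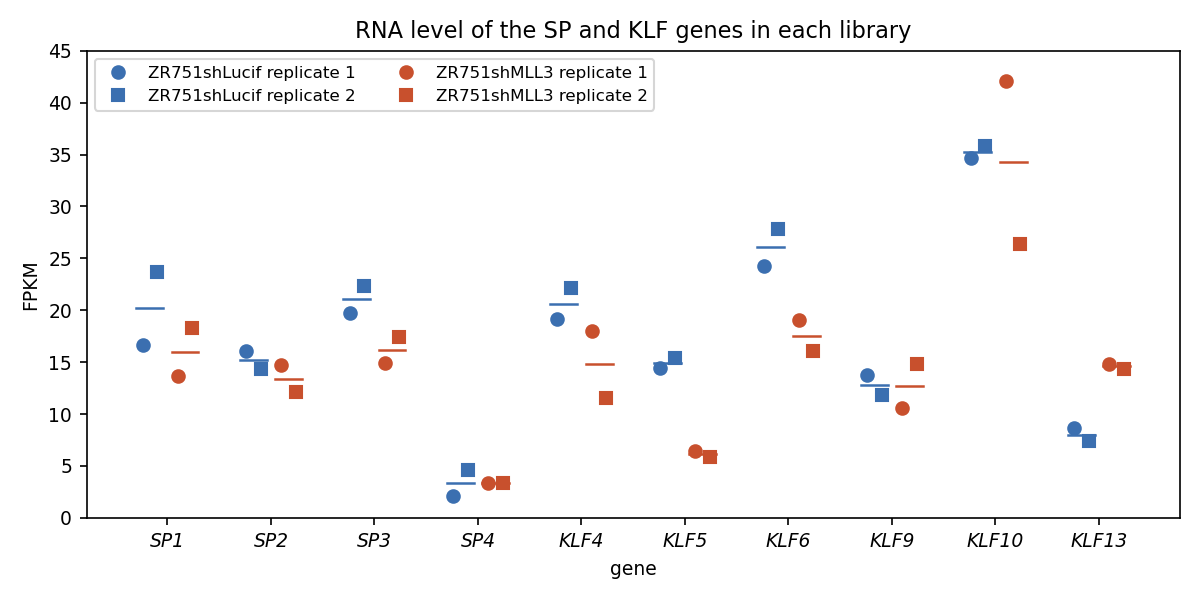
FPKM of the 10 SP and KLF genes (y axis) in the 2 ZR751shLucif (blue) and 2 ZR751shMLL3 (red) libraries, with short lines at the mean of each cell line. KLF5 lay at 14.5 and 15.4 FPKM against 6.44 and 5.83, and KLF13 at 8.65 and 7.39 against 14.8 and 14.4; neither difference passed the adjusted p.

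The SP branch was examined first. SP1, the factor that was immunoprecipitated, had 16.7 and 23.7 FPKM in the controls, against 13.7 and 18.3 in ZR751shMLL3. Its cell lines overlapped, with a log2 fold change of -0.32 (SE 0.316, 95% interval -1.08 to 0.44, limma adjusted p = 0.749), on the log2(FPKM + 0.5) scale used for all fold changes here. It was -0.57 without ZR751shLucif replicate 1, -0.52 without ZR751shMLL3 replicate 2, -0.12 without ZR751shMLL3 replicate 1, -0.072 without ZR751shLucif replicate 2 and -0.096 with the GC trend removed. SP3 had 19.8 and 22.3 FPKM in the controls, against 14.9 and 17.4 in ZR751shMLL3, so both knockdown libraries lay below both controls. Its log2 fold change of -0.37 (SE 0.270, limma adjusted p = 0.680) became 0.00035 once the trend on GC content was removed, and its transcript is AT-rich, with 37.8% GC against a median of 48.8% over the genes tested. The ratio of SP3 to SP1 within a library, which any scaling of a whole library leaves as it is, was 1.19 and 0.942 in ZR751shLucif and 1.09 and 0.951 in ZR751shMLL3.

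SP2, a family member that is often found at CCAAT-containing promoters, had 16.05 and 14.4 FPKM in the controls, against 14.7 and 12.1 in ZR751shMLL3. The libraries overlapped, at a log2 fold change of -0.18 (SE 0.273, limma adjusted p = 0.831). With 1 library left out it ran from -0.32, without ZR751shMLL3 replicate 1, to -0.045, without ZR751shMLL3 replicate 2, and it was -0.29 with the GC trend removed. SP4, which is best known from neurons, had the lowest level of all members, at 2.08 and 4.58 FPKM in the controls, against 3.35 and 3.33 in ZR751shMLL3. The spread of SP4 lay in the control line alone, and its log2 fold change of 0.08 (SE 0.377, limma adjusted p = 0.949) turned to -0.40 without ZR751shLucif replicate 1 and to 0.57 without ZR751shLucif replicate 2.

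Among the KLF genes, KLF5 promotes proliferation in epithelia and is an unstable protein that ubiquitin ligases such as WWP1 and FBXW7 remove. It had 14.5 and 15.4 FPKM in the controls, against 6.44 and 5.83 in ZR751shMLL3. The knockdown libraries were thus far below the controls, at a log2 fold change of -1.22 (SE 0.262, 95% interval -1.85 to -0.58), and the limma adjusted p over all rows was 0.418. This fold change was lower than that of all but 0.997% of the rows tested. Removal of the GC trend left -1.004. With each library left out in turn it ran from -1.29 to -1.15, and without ZR751shLucif replicate 2 the limma adjusted p was 0.0336, a fit in which 1269 rows were called.

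KLF13, a repressor and activator of basic transcription element promoters that recruits SIN3A and histone deacetylases, had 8.65 and 7.39 FPKM in the controls, against 14.8 and 14.4 in ZR751shMLL3. The knockdown libraries were above the controls, at a log2 fold change of 0.83 (SE 0.266, 95% interval 0.19 to 1.47), with a limma adjusted p of 0.585. It lay at the 96.3rd percentile of all rows, and stood at 0.67 with the GC trend removed. Over the fits without 1 library it ran from 0.72 to 0.93. As a pair, chosen after their values were seen, KLF5 and KLF13 stood in opposite order in the cell lines: the ratio of KLF5 to KLF13 was 1.67 and 2.08 in the ZR751shLucif libraries and 0.435 and 0.405 in the ZR751shMLL3 libraries.

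KLF6, a regulator with tumour suppressor functions, had 24.3 and 27.9 FPKM in the controls, against 19.0 and 16.1 in ZR751shMLL3. The cell lines did not overlap, and the log2 fold change was -0.56 (SE 0.272, limma adjusted p = 0.629), and -0.35 with the GC trend removed. KLF4, a pluripotency and differentiation factor, had 19.2 and 22.1 FPKM in the control and 18.0 and 11.6 upon knockdown. Its log2 fold change of -0.50 (SE 0.316, limma adjusted p = 0.654) was -0.19 without ZR751shMLL3 replicate 2 and -0.80 without replicate 1. A noncoding gene on the opposite strand covers 9.75% of the exon bases of KLF4, and the strand setting of the quantification is not given in the sources used here, so reads of the pair may be mixed.

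KLF9 and KLF10 are hormone-responsive members, the former induced by glucocorticoid and thyroid hormone and the latter an early gene of TGFβ and estrogen signalling. KLF9 had 13.8 and 11.8 FPKM in the controls, against 10.5 and 14.8 in ZR751shMLL3. KLF10 had 34.7 and 35.8 FPKM in ZR751shLucif, and its ZR751shMLL3 libraries lay on either side, at 42.1 and 26.4. The log2 fold changes were -0.03 (SE 0.297) and -0.08 (SE 0.319), with limma adjusted p of 0.980 and 0.944. The direction of KLF9 turned to 0.056 under quantile normalization and to 0.16 with the GC trend removed, and that of KLF10 to 0.082 with the GC trend removed.

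**Figure D2:**
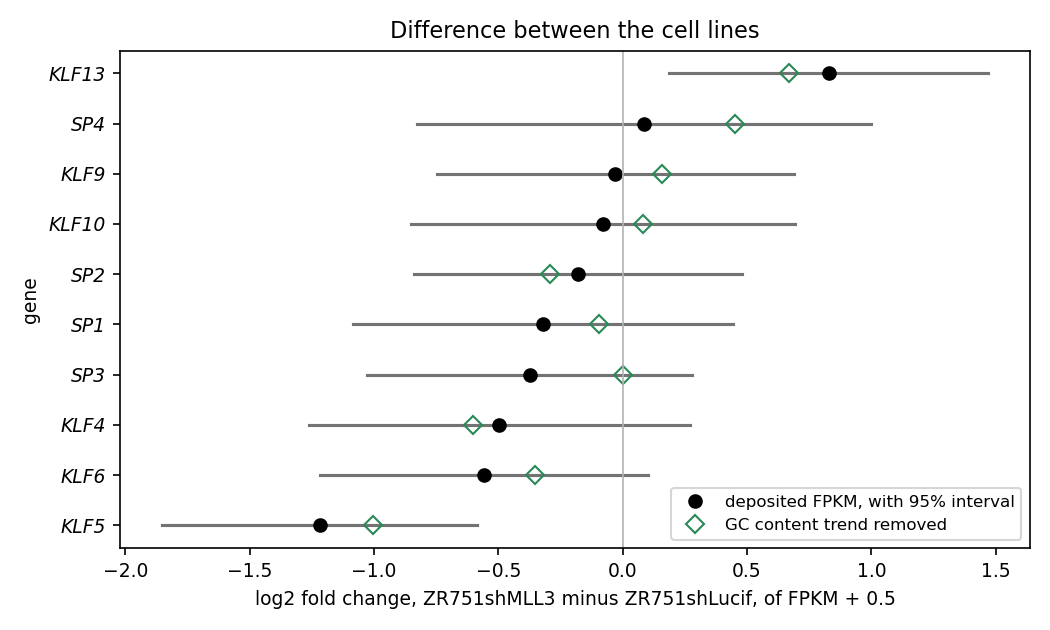
Log2 fold change of each member (x axis, ZR751shMLL3 minus ZR751shLucif, n = 2 libraries each) with its 95% limma interval (black), and the value after the trend on GC content was removed (green diamonds). The intervals of KLF5 and KLF13 alone exclude 0, and neither gene passed the adjusted p.

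By level, averaged over the 4 libraries, KLF10 came first (34.7 FPKM ± 6.46, SD, n = 4) and SP4 last (3.33 ± 1.02, SD, n = 4). Between them came KLF6, SP3, SP1, KLF4, SP2, KLF9, KLF13 and KLF5, with means of 21.8, 18.6, 18.1, 17.7, 14.3, 12.8, 11.3 and 10.5 FPKM. Every neighbour in this order overlapped the next over the 4 libraries except SP4, which lay below KLF5. Within each cell line, however, KLF10 lay above KLF6 in both libraries, and KLF5 lay above KLF13 in the controls and below it in ZR751shMLL3. FPKM are scaled for transcript length, but GC content also differs between these genes, and its effect on this order was not tested.

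The 16 other members of the family, none of them in the set above, were mostly low. Only SP6, KLF2, KLF3, KLF7, KLF8, KLF11 and KLF16 passed the filter, 9 stayed below 1 FPKM in every library, and SP8 and KLF17 were listed at 0 throughout. Of the 7 tested, 2 had positive and 5 negative fold changes, 0 passed the adjusted p in limma and 1 had an unadjusted p under 0.05, with a median log2 fold change of -0.30. Over all rows tested, 59.1% had a negative fold change and 7.98% an unadjusted limma p under 0.05. KLF3, a CtBP-recruiting repressor, had 18.0 and 17.0 FPKM in the controls, against 9.38 and 11.6 in ZR751shMLL3 (log2 fold change -0.72, limma adjusted p = 0.605), and was the member with an unadjusted p under 0.05. It was followed by KLF2 at -0.51, with SP6 at 0.67 and KLF16 at 0.22 the largest positive values. After removal of the GC trend, these stood at -0.41, -0.75, 0.44 and -0.12.

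Of 26 cofactors and modifiers of SP and KLF proteins, all were tested, 8 with positive and 18 with negative fold changes (median -0.15), and limma called 0 of them at the adjusted p and 2 at an unadjusted p under 0.05. The shares of all rows tested were 59.1% with a negative fold change and 7.98% at that unadjusted p. HDAC2, a deacetylase recruited by several members, had 14.8 and 8.12 FPKM in the controls, against 6.14 and 5.60 in ZR751shMLL3 (log2 fold change -0.85, limma adjusted p = 0.613). The acetyltransferase KAT2B stood at 0.33. The ligases of KLF5, WWP1 and FBXW7, had log2 fold changes of -0.21 and -0.0058. With the GC trend removed, HDAC2 stood at -0.48, KAT2B at 0.64, WWP1 at 0.11 and FBXW7 at 0.19.

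Genes reported to be driven through SP1, or through ERα and SP1 together, gave 13 positive and 8 negative fold changes among the 21 tested of 22 (median 0.06). Negative fold changes made up 59.1% of all rows tested. Limma called 0 at the adjusted p, and 2 had an unadjusted p under 0.05, against 7.98% of all rows. These were thymidine kinase TK1 (log2 fold change 0.81, limma adjusted p = 0.613) and adenosine deaminase ADA (0.73, limma adjusted p = 0.605), with 70.0 and 98.5 against 176 and 122 FPKM for TK1 and 12.0 and 10.6 against 17.8 and 20.5 for ADA. The lowest were the progesterone receptor PGR at -0.59 and thymidylate synthase TYMS at -0.54. The counts of each direction and the median are those before removal of the GC trend. With it removed, TK1 stood at 0.54, ADA at 0.65, PGR at -0.29 and TYMS at -0.42. The highest was then FOS at 0.72, from 0.73 before. The lowest was the IGF-binding protein IGFBP4 at -0.77, from -0.50 before. Of 12 other zinc finger factors that bind GC-rich sequence, 11 were tested, 7 with positive and 4 with negative fold changes (median 0.21), 0 past the adjusted p in limma and 2 at an unadjusted p under 0.05. The immediate early factor EGR3 had 7.15 and 2.27 FPKM in the controls, against 16.7 and 24.5 in ZR751shMLL3 (log2 fold change 2.17, limma adjusted p = 0.458), and WT1 stood at 0.86. ZNF148 and VEZF1 were the lowest, at -0.43 and -0.26, and at -0.03 and 0.03 with the GC trend removed. EGR3 and WT1 then stood at 2.16 and 0.84.

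SP1 binding at the members' promoters was then read from the peak lists, 1 per library, which the authors called with SPP against the input of each cell line. A promoter held a peak where a summit with an FDR of 0.01 or less lay within 1000 bp of an annotated start of a protein-coding transcript. The lists differ in kind. Neither ZR751shLucif list holds any peak at this FDR (their highest −log10 FDR are 1.54 and 1.21), while 204178 of 209985 peaks pass in ZR751shMLL3 replicate 1 and 12065 of 300000 in replicate 2. The list of ZR751shMLL3 replicate 1 is also the 1 list of 12 without the mark of duplicate filtering that the other 11 carry. The lists also differ in sequence. Of the 20000 top-ranked peaks, 3.1% and 3.8% in ZR751shLucif held a GC box (GGGCGG or its reverse complement) in the 300 bp around the summit. In ZR751shMLL3 the shares were 3.8% in replicate 1 and 33.9% in replicate 2. For the best peaks at promoters they were 50.0%, 51.1%, 52.5% and 73.1%, in the same order. A rank or a missing peak is thus not a measure of SP1 binding alone. Because the lists differ, ranks by signal within each list, and counts over its 20000 top-ranked peaks, are given beside the FDR.

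At the FDR of 0.01, 0 and 0 members had an SP1 peak in ZR751shLucif, where 0% and 0% of the 19794 protein-coding genes had one. In ZR751shMLL3 replicate 1 there were 2, SP1 and SP2, against 25.2% of all genes. In ZR751shMLL3 replicate 2 there were 9, all but KLF9, against 30.0% of all genes and 49.3% of the genes tested in the RNA-seq. The means were 0 and 5.5 ± 4.95 (SD, n = 2), with a two-sided p of 0.333 (exact permutation test). No smaller value is possible with 2 libraries per cell line. As neither control list holds a peak at this FDR, the control counts would be 0 for any set of genes. The test and the difference therefore say nothing about these genes in particular. Without ZR751shMLL3 replicate 2 the difference of 5.5 members was 2, and without ZR751shMLL3 replicate 1 it was 9. Over the 20000 top-ranked peaks per library, 2 and 2 members had one in ZR751shLucif (4.44% and 5.04% of all genes), 2 in ZR751shMLL3 replicate 1 (5.47%) and all 10 in replicate 2 (34.1%). Of the genes tested in the RNA-seq, 55.7% had one in ZR751shMLL3 replicate 2. The 8 members other than SP1 and SP2 thus had a top-ranked promoter peak in 1 library of 4.

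**Figure D3:**
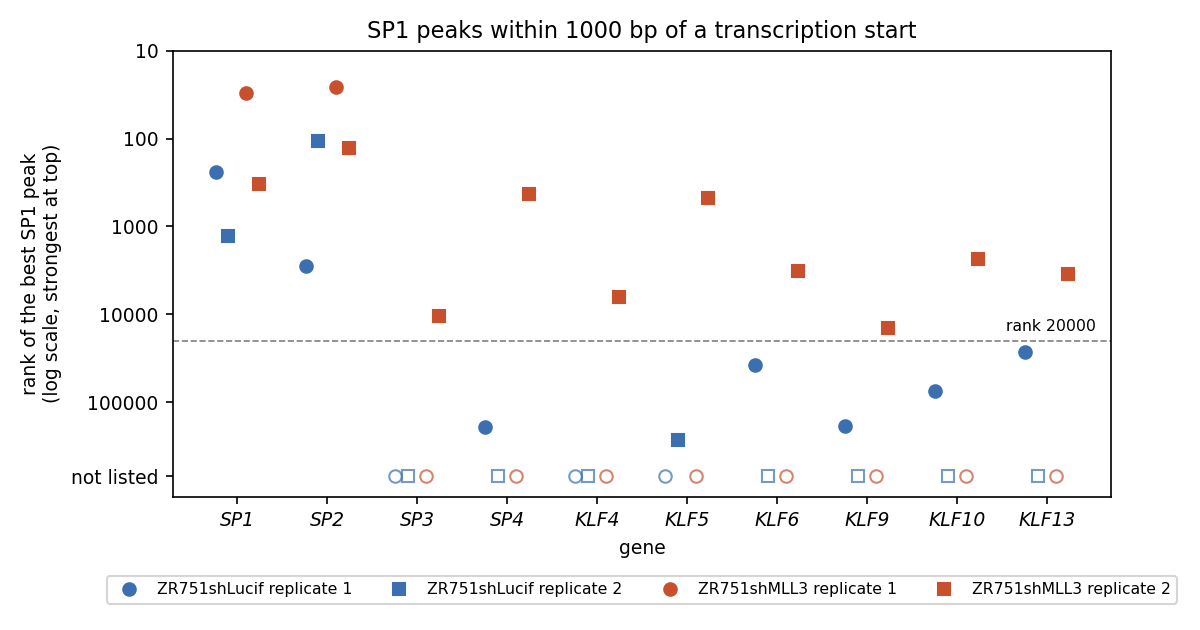
Rank by signal (y axis, log scale, strongest at the top) of the best SP1 peak within 1000 bp of a start of each member, in each of the 4 libraries, with open symbols where no peak is listed. SP1 and SP2 rank between 26 and 2856 in all 4 libraries, and the other 8 members lie above the rank of 20000 in ZR751shMLL3 replicate 2 alone.

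SP1 and SP2 had SP1 peaks of high rank in every library. In the controls these peaks had a −log10 FDR of at most 1.54 and thus missed the FDR of 0.01, as every peak of those lists did, and in ZR751shMLL3 the values were 3.28 to 3.52. At the SP1 gene's own promoter the best peak ranked 242 and 1279 in ZR751shLucif and 30 and 330 in ZR751shMLL3. At SP2 the ranks were 2856 and 107 in ZR751shLucif and 26 and 128 in ZR751shMLL3. The cell lines overlapped in rank at SP2, and at SP1 the controls lay on either side of ZR751shMLL3 replicate 2. The 4 summits lay within 216 bp of each other at SP1, 147 to 363 bp before the first start, and within 120 bp at SP2, 88 to 208 bp before it. Only 130 of all protein-coding genes (0.657%) had a top-ranked promoter peak in all 4 lists. The irreproducible discovery rate keeps peaks that rank both high and alike in the 2 replicates. It was used at 0.5 or less, a lenient limit that can let in many irreproducible pairs. By it, SP1 and SP2 were the members with a peak, in both cell lines. Of all genes, 1.30% had one in ZR751shLucif and 6.03% in ZR751shMLL3.

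Sequences at these peaks are shown for SP1 and SP2, whose peaks recurred, and for SP4, KLF5 and KLF13, whose peaks came from ZR751shMLL3 replicate 2, with GC boxes (GGGCGG or its reverse complement) and CCAAT boxes (CCAAT or its reverse complement) in capitals, 5′ to 3′ on the plus strand, which is the strand of all 5 genes, of GRCh37 (hg19). Each window was placed by the median summit and ends before the nearest start, which is base 53773960 of SP1, 45973516 of SP2, 21467661 of SP4, 73633143 of KLF5 and 31619038 of KLF13. They are chr12:53773566-53773865 for SP1, chr17:45973207-45973506 for SP2, chr7:21466905-21467204 for SP4, chr13:73633007-73633142 for KLF5 and chr15:31618486-31618785 for KLF13. No transcript is annotated in the SP1 and KLF13 windows, the SP2 and SP4 windows cross an exon of a noncoding RNA (SP2-DT at SP2), and the KLF5 window lies in an intron of its longer transcript, just before the start of the shorter one. Ending there leaves 136 bp for KLF5, which stop short of its summit, and 300 bp for the others.
SP1: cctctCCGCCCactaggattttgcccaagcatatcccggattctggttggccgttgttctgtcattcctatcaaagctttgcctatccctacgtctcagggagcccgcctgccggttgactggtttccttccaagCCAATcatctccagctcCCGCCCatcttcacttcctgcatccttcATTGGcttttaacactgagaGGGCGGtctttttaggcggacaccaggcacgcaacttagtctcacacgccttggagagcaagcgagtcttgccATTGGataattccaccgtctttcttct
SP2: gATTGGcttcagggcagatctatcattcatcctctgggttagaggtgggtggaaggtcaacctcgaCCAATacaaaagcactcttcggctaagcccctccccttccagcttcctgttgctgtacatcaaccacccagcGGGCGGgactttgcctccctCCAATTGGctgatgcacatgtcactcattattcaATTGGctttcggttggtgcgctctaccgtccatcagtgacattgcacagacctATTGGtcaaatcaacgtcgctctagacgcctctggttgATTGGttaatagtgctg
SP4: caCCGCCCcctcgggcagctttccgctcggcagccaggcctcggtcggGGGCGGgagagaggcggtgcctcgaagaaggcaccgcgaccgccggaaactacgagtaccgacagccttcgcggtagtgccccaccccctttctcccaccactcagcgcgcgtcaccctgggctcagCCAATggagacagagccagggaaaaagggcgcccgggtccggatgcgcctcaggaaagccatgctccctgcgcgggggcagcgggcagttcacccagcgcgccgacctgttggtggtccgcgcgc
KLF5: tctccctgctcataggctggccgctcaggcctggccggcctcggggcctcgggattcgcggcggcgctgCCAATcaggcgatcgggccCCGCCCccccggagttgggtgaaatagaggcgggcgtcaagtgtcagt
KLF13: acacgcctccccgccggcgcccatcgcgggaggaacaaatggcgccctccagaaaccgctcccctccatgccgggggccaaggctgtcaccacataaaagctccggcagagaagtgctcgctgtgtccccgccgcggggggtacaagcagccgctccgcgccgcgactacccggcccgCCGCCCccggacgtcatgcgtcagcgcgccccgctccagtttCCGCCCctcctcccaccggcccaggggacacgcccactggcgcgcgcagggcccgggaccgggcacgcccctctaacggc

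The SP1 and SP2 windows are dense in CCAAT boxes, the site of the factor NF-Y, and have moderate GC content. The SP1 window holds 3 GC boxes and 3 CCAAT boxes at 53.0% GC. The SP2 window holds 1 GC box and 7 CCAAT boxes at 51.3% GC, and 2 of its CCAAT boxes overlap in the palindrome CCAATTGG. The other 3 are GC-rich, at 70.6 to 74.0%, with 1 or 2 GC boxes and 0 or 1 CCAAT boxes as printed. The full 300 bp around the KLF5 summit, which run past the start, hold 4 GC boxes and 1 CCAAT box. In the 300 bp before the 5′ end of each gene, SP1 had 4 CCAAT boxes, as did KLF6, and SP2 had 6. At least 4 CCAAT boxes were found there in 1.32% of all protein-coding genes and in 7.69% of the 130 genes with a peak in all 4 lists, and at least 6 in 0.197% and 3.08%. Among the 130 genes these shares rest on 10 and 4 genes, with SP1 and SP2 counted in the 10 and SP2 in the 4. A GC box lay in the same 300 bp in 7 of the 10 members, against 50.6% of all genes and 62.3% of the genes tested in the RNA-seq, and KLF4, KLF5 and KLF9 had none there. A CACCC box lay there in 6 of the 10, against 62.1% of all genes. For KLF4, KLF5 and KLF9, the 300 bp around the SP1 summit lie apart from those before the 5′ end, and held 2, 4 and 0 GC boxes. These are matches of letters and do not show binding.

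The remaining promoters had peaks of widely different rank in ZR751shMLL3 replicate 2. SP4 ranked 428 and KLF5 ranked 473, followed by KLF10 at 2341, KLF6 at 3245, KLF13 at 3480, KLF4 at 6373, SP3 at 10577 and KLF9 at 14218. KLF5, whose RNA was lower upon knockdown, and KLF13, whose RNA was higher, both had such a peak. The KLF5 summit lay 13 bp after the start of its shorter transcript and the KLF10 summit 6 bp before a start, while those of KLF4, KLF9 and KLF6 lay 834, 392 and 203 bp downstream of the nearest annotated start and those of SP3, SP4 and KLF13 lay 651, 607 and 403 bp upstream. In ZR751shMLL3 replicate 1 none of these 8 had a listed promoter peak of any rank. ZR751shLucif replicate 1 listed 5 of them, KLF13 at rank 27263, KLF6 at 37471, KLF10 at 74364, KLF9 at 185704 and SP4 at 194247, and ZR751shLucif replicate 2 listed KLF5 at 269607.

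**Figure D4:**
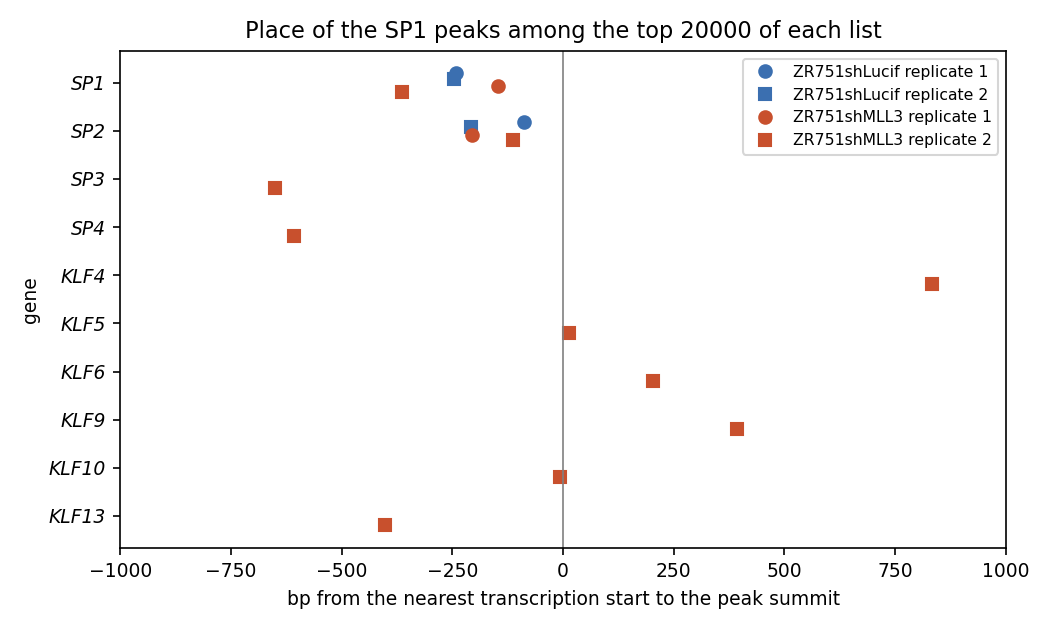
Distance in bp from the nearest annotated start to the summit (x axis, negative upstream) of each member's best SP1 peak among the 20000 top-ranked of its library. The 4 libraries cluster upstream of the start at SP1 and SP2, whereas the other members have 1 peak each, from 651 bp upstream to 834 bp downstream.

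H3K4me1 usually flanks active promoters, and the members' counts of it close to a start were near the shares of all genes. At the FDR of 0.01, 2 and 3 members had a promoter peak in ZR751shLucif (20.2% and 25.2% of all genes) and 0 and 1 in ZR751shMLL3 (4.23% and 12.8%), a difference of -2 members with a two-sided p of 0.333 (exact permutation test, the smallest possible). The share of all genes thus moved the same way. Of the genes tested in the RNA-seq, 28.9% and 35.5% had such a peak in ZR751shLucif and 6.09% and 17.7% in ZR751shMLL3. SP1 had peaks at ranks 90449 and 52013 in ZR751shLucif, 470 and 363 bp after a start, and in ZR751shMLL3 only one at rank 270115 in replicate 1, below the threshold. KLF9 had them at ranks 81632 and 74194 in ZR751shLucif, with no listed peak in ZR751shMLL3 replicate 1 and one at rank 234612 in replicate 2. KLF13 was the exception, with a peak at rank 20987 in ZR751shMLL3 replicate 2 and none past the threshold in the other 3 libraries. The summit of that peak, at base 31631361, lay 775 bp before an alternative start inside the gene. It was not near the 5′ end, at base 31619038, where the SP1 peak of KLF13 lay. At SP4 the rank was 50235 in ZR751shLucif replicate 2, which passed, and 34619 in ZR751shMLL3 replicate 1, which did not, so that a call at this FDR depended on the list. Within 2500 bp the counts were 6 and 8 in ZR751shLucif and 3 and 7 in ZR751shMLL3, against 38.4%, 45.6%, 10.6% and 28.9% of all genes, and none of the promoters had a peak among the 20000 top-ranked of any list within 1000 bp.

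ERα peaks at these promoters were few, and their counts were near the shares of all genes. At the FDR of 0.01 the counts were 1 and 0 members in ZR751shLucif (12.0% and 0.950% of all genes) and 0 and 0 in ZR751shMLL3 (0.157% and 2.96%), with a two-sided p of 1 (exact permutation test, n = 2 per cell line). The one was SP2, at rank 98328 of ZR751shLucif replicate 1. Among the 20000 top-ranked peaks, KLF5 had one at rank 7200 in ZR751shLucif replicate 2, 237 bp before a start, and SP2 one at rank 11768 in ZR751shMLL3 replicate 1. Within 2500 bp, SP2, SP4, KLF4 and KLF5 had an ERα peak at the FDR of 0.01, each in ZR751shLucif replicate 1, where 24.2% of all genes had one and whose list holds 98579 peaks at this FDR against 764 to 31912 in the other 3.

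Away from the promoters, within 50 kb of the gene bodies, 1 ERα site recurred among the top-ranked peaks of all 4 libraries, and it lay by KLF10. This site was singled out after its values were seen. Its ranks were 1299 and 34 in ZR751shLucif and 40 and 66 in ZR751shMLL3, with summits within 53 bp of each other, 47691 bp past the 3′ end of KLF10. It was thus among the strongest ERα peaks with and without the knockdown. The nearest annotated start was that of ODF1, 40631 bp away, and the next that of KLF10, at 53282 bp, so the distance does not assign the site to KLF10. Of all protein-coding genes, 203 (1.03%) had such a recurrent ERα site within 50 kb. The exact palindromic estrogen response element was not found within 100 bp of it on either strand, and lay at 2.60 to 8.00% of the 2000 top-ranked ERα peaks of each library. H3K4me1 peaks within 1000 bp of the site were listed in ZR751shLucif replicate 2, at rank 38502, and in ZR751shMLL3 replicate 2, at rank 270696, and in neither other library. KLF10 RNA, as given above, overlapped between the cell lines.

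In the same search, the SP1 and SP2 promoters gave the only SP1 sites that recurred in all 4 SP1 lists near a member, where 1.99% of all genes had one within 50 kb. For H3K4me1 only SP2 had a recurrent site, against 3.86% of all genes. It lay 19412 or 19461 bp past the 3′ end, depending on which peak of ZR751shLucif replicate 1 is taken, at rank 1653 or 5018. The peaks of the other libraries were the same, at rank 91 in ZR751shMLL3 replicate 1, 5647 in ZR751shMLL3 replicate 2 and 15719 in ZR751shLucif replicate 2.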

How the data were processed

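RNA-seq and ChIP-seq were analysed in ZR751shLucif and ZR751shMLL3 cells, grouped by the sample titles. The FPKM values are the authors' own, estimated per RefSeq gene with TopHat2 2.0.13 and Cufflinks and Cuffnorm 2.2.1 on hg19, for 23500 rows, of which 97.4% were paired with a symbol. The peak lists were made by the authors with BWA 0.7.5a-r405, Picard 1.126 and SPP against 1 input per cell line. The deposited signal values have their own scale in each list and were used only as ranks. The deposited −log10 FDR gave the threshold of 0.01. The depth of single genes or peaks is therefore not known.

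Log2(FPKM + 0.5) values with a mean above 1 were tested with limma 3.58.1 in R 4.3.3, with Benjamini-Hochberg adjustment over all 11134 rows and a threshold of 0.05. Starts, and the GC content of the longest coding transcript, came from GENCODE on GRCh37. Peaks were handled with bedtools 2.31.1, pandas 2.3.3, scipy 1.17.1 and numpy 2.4.6 under Python 3.11.15, sequences were indexed with samtools 1.23.1, and figures drawn with matplotlib 3.10.9. Recurrent sites had summits within 500 bp among the 20000 top-ranked peaks of all 4 lists. The irreproducible discovery rate came from a Gaussian copula mixture. This step and the limma fit were tested on simulated data. All 10 members, the 2 largest changes each way in each further list and MLL3 were named by rule, and WWP1 and FBXW7 were added as ligases of KLF5. For 2 cofactors that the rule names, values are not reported here. The members and the lists were chosen with earlier results of these data known. Replicate spread is that between 2 libraries.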

Additional observations from a re-analysis of the deposited data

How the results depend on the processing

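Of 110 member fold changes over 11 alternative RNA-seq fits, 102 kept their direction. Those that turned were SP3 (0.00035 with the GC trend removed), SP4 (-0.40 to 0.57 with 1 library left out), KLF9 (0.056 under quantile normalization, 0.16 with the GC trend removed, -0.27 to 0.21 with 1 library left out) and KLF10 (0.082 with the GC trend removed, -0.41 to 0.25 with 1 library left out). No member passed the adjusted p under 9 of the 11 fits. Removal of 1 surrogate variable called 3 (SP4, KLF5 and KLF13) among 1682 rows called in all, left 4 members at an unadjusted p under 0.05, where 36.7% of all rows had one, and estimates the spread from residuals that the removal itself has narrowed. With 1 library left out, 0 to 1 members were called, 0 to 3 had an unadjusted p under 0.05 (1.92% of all rows without ZR751shMLL3 replicate 1 to 33.6% without ZR751shLucif replicate 2) and 2 to 1269 rows were called, the spread of the lone library then being taken from the other cell line. Over all rows, limma called 1 row, 0 without the filter on low values, 0 with the GC trend removed and 33 with the replicate block. The block called 0 members and changed no other call of a member. By their titles, same-numbered libraries share only a number, and whether they also share a batch was not tested. Their deviations from the cell line means correlated at 0.0374 across genes, which are not independent replicates. In leave-one-out comparisons, an alternative chosen after seeing the data, 7 to 8 members did not overlap between the cell lines, against 5 with all libraries.

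For the SP1 promoter peaks, the difference between the cell lines of 5.5 members was 1 with every listed peak, 0 by the irreproducible discovery rate, and 2 to 9 with 1 library left out. It was 4 with the 20000 top-ranked peaks, 4.5 within 500 bp and with the gene's 5′ end only, and 7 within 2500 bp. In every setting that used the FDR of 0.01, the control counts of 0 were fixed by lists without such peaks. The H3K4me1 difference of -2 was 0 with the top-ranked peaks and -2.5 to -1.5 with 1 library left out. The ERα difference of -0.5 was 0 with the top-ranked peaks, -2 within 2500 bp, 0.5 with every listed peak, a setting chosen after seeing the data, and -1 to 0 with 1 library left out. Except where stated, the causes of these shifts were not tested. The 2 libraries per cell line and the unknown depth limit every comparison.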
